A study of Mus musculus with 10 samples.

Results

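The genes described here are the chains of the receptors for interleukin 4 (IL-4) and interleukin 13 (IL-13), the Janus kinases that these chains carry, and the transcription factor that they act through. They were taken by name: Il4ra, Il13ra1, Il13ra2, Il2rg, Jak1, Jak2, Jak3, Tyk2 and Stat6, which are 9 of the 54446 genes in the deposited table. RNA was measured in the esophagus of wild-type (WT) C57BL/6 mice with CEL-Seq, a method that counts reads near the 3′ ends of transcripts. One group of 5 libraries (C1 and D1 to D4) came from mice in which eosinophilic esophagitis was modelled with OXA, the allergen oxazolone (an oxazolinone that carries an ethoxymethylene and a phenyl group), and 5 libraries (A1 to A5) came from mice given the vehicle. The labels name no OXA dose or schedule, no age or sex, no origin of the replicates and no meaning of the letters. The p-values below therefore cover only how far these libraries spread, which may be technical. No letter is shared by OXA and vehicle libraries, so whatever the letters stand for and the treatment cannot be told apart.

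IL-4 and IL-13 are type 2 cytokines and both bind receptors that contain the IL-4 receptor alpha chain, encoded by Il4ra. The type I receptor pairs this chain with the common gamma chain (Il2rg), binds IL-4 and is found mainly on blood-derived cells, while the type II receptor pairs it with Il13ra1, binds IL-4 and IL-13 and is found on epithelial cells, fibroblasts and other non-blood cells as well as on myeloid cells. Binding brings the kinases of the chains together, JAK1 on the alpha chain with JAK3 on the common gamma chain or with TYK2 or JAK2 on the IL-13 receptor chain, and these phosphorylate STAT6, which then enters the nucleus. Il13ra2 encodes a further IL-13 binding chain that has no kinase site and is known mainly as a decoy. The series title concerns IL-13 acting through the type II receptor on epithelial cells in eosinophilic esophagitis, and the comparison here asks how the RNA of each component stood after OXA.

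The RNAs of 3 receptor chains and 1 kinase were higher in OXA esophagus, and those of the other kinases and of Stat6 did not pass the test in either direction. Il4ra, Il13ra1, Il2rg and Jak3 stood at 2.61 to 4.58 times the vehicle mean, and no OXA library overlapped a vehicle library for any of them. Jak1, Jak2, Tyk2 and Stat6 had OXA means of 1.01 to 1.25 times the vehicle means. Il13ra2 was near the detection limit in both groups. Of the 9 genes, 8 passed the filter for testing (a mean of at least 5 normalized counts over the 10 libraries), 4 were higher and 0 were lower at a Benjamini-Hochberg adjusted p under 0.05 in limma on log2(value + 1). Among all 14712 genes tested in the same way, 15.7% were higher, 14.2% were lower and 29.9% were called in either direction. The groups stood apart with OXA above vehicle for 4 of the 8 genes and for 12% of all genes tested. The median log2 change was 0.85 over the 8 genes and -0.01 over all genes tested.

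The promoters of the 4 genes whose RNAs were higher in OXA are shown. Each run holds 300 bases, 250 before and 50 after the transcript start, on the gene's own strand, from RefSeq on GRCm38.p6, and capitals mark CG dinucleotides. They lie at chr7:125552021-125552320 (+) for Il4ra, chrX:36111858-36112157 (+) for Il13ra1, chrX:101268206-101268505 (−) for Il2rg and chr8:71676133-71676432 (+) for Jak3.
Il4ra: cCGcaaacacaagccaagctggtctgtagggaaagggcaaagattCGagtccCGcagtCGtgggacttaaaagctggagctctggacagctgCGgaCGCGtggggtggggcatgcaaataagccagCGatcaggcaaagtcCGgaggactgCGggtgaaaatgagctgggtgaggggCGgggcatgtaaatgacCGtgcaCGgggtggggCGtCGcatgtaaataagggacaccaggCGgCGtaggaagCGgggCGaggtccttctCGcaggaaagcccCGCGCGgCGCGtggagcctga
Il13ra1: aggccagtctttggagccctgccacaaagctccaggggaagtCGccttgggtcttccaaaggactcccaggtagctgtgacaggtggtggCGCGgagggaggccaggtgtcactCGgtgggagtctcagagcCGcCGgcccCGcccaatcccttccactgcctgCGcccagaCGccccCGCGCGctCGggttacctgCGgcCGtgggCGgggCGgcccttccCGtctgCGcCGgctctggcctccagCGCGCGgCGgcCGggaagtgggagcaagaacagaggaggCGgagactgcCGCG
Il2rg: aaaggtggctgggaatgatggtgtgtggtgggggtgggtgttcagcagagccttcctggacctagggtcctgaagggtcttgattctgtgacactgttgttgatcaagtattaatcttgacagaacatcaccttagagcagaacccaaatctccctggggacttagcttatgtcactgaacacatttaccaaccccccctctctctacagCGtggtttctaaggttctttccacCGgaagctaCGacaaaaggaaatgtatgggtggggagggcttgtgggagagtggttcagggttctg
Jak3: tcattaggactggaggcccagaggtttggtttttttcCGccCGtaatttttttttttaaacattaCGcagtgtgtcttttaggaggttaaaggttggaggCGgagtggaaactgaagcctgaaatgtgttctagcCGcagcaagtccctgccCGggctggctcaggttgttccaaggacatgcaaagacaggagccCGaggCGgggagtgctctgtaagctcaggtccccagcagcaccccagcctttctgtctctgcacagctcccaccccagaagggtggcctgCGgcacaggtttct
The Il4ra and Il13ra1 promoters held 25 and 28 CG dinucleotides at a GC content of 62.0% and 71.0%, while the Il2rg and Jak3 promoters held 3 and 9 at 50.3% and 54.3%. Over all 32851 mouse promoters in the RefSeq set the median was 7 CG dinucleotides, with quartiles of 3 and 20, and a GC content of 52.7%. Both chains of the type II receptor therefore had start regions above the upper quartile of CG content, and Il2rg stood at the lower quartile. The remaining members spanned the range, with 44 CG dinucleotides at Jak2, 29 at Jak1, 23 at Tyk2, 8 at Stat6 and 1 at Il13ra2. The palindromic STAT motif TTCNNNNGAA, the spacing associated with STAT6, was in none of the 9 members' windows and in 6.95% of all promoters. The general STAT motif TTCNNNGAA was likewise in 0 of the 9 and in 8.3% of all promoters. Both motifs read the same on either strand. The letters TATAAA, on either strand, were in 1 of the 9, Il13ra2, at positions -31 and -248 from the start, and in 13.6% of all promoters. These are counts of letters in a 300-base window and do not show where a factor binds.

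Il4ra, the alpha chain shared by both receptors (ENSMUSG00000030748.9, GRCm38 chromosome 7, 125552120 to 125579774), had 246, 161, 232, 164 and 144 normalized counts in OXA libraries C1 and D1 to D4, against 66.8, 55.5, 40.9, 64.4 and 60.1 in vehicle libraries A1 to A5. A normalized count is the gene's read count divided by 1 scaling factor for its library. The lowest OXA library, D4, lay well above the highest vehicle library, A1. The means were 189 ± 46.2 in OXA and 57.5 ± 10.2 in vehicle esophagus (SD, n = 5 each), a ratio of 3.29. The log2 change was 1.69 ± 0.20 (standard error), with a 95% interval of 1.26 to 2.11 and an adjusted p of 3.71e-05 in limma. In whole tissue, more cells of a type and more RNA per cell cannot be told apart, for this gene or for any other below.

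Il13ra1, the chain that makes the receptor type II (ENSMUSG00000017057.9, chromosome X, 36112110 to 36171559), had 244, 152, 299, 220 and 342 normalized counts in C1 and D1 to D4, against 96.6, 57.0, 129.6, 113.7 and 84.4 in A1 to A5. All OXA libraries were above all vehicle libraries, with D1 the lowest of the OXA group and D4 the highest. The means were 251 ± 72.9 in OXA and 96.3 ± 27.8 in vehicle esophagus (SD, n = 5 each). The log2 change was 1.38 ± 0.25, with a 95% interval of 0.85 to 1.91 and an adjusted p of 9.03e-04 in limma.

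Il2rg, the common gamma chain that completes the type I receptor (ENSMUSG00000031304.18, chromosome X, 101264078 to 101268255), had 271, 294, 194, 212 and 121 normalized counts in C1 and D1 to D4, against 38.0, 60.0, 73.1, 94.5 and 32.9 in A1 to A5. The groups did not overlap, and the lowest OXA library, D4, stood closest to the highest vehicle library, A4. The means were 218 ± 68.0 in OXA and 59.7 ± 25.4 in vehicle esophagus (SD, n = 5 each). The log2 change was 1.89 ± 0.30, with a 95% interval of 1.25 to 2.54 and an adjusted p of 3.79e-04 in limma. Il2rg lies on the same strand inside the window of a second gene, Gm20489, which was listed at 0 in every library; how reads that match both were counted is unstated in the sources.

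The order of the OXA libraries differed between the partner chains. D1 had the highest Il2rg and the lowest Il13ra1 of the OXA group, and D4 had the lowest Il2rg and the highest Il13ra1. Whether the chains changed by different amounts was tested within libraries, as the difference of log2(value + 1) between 2 genes of the same library, with an exact two-sided permutation test over all regroupings of the libraries and Benjamini-Hochberg adjustment over the 9 pairs examined. Levels were not compared between genes, and only the shift of this difference between groups was read. Il2rg minus Il13ra1 averaged -0.21 ± 0.91 in OXA and -0.73 ± 0.63 in vehicle libraries (SD), a shift of 0.52 (exact permutation p = 0.310, adjusted 0.429). Il4ra minus Il13ra1 shifted by 0.31 (exact permutation p = 0.381, adjusted 0.429) and Il2rg minus Il4ra by 0.21 (exact permutation p = 0.595, adjusted 0.595), and the groups overlapped in all 3 pairs. Leaving out 1 library kept these shifts positive but moved them, to 0.23 without D1 and 0.84 without D4 for Il2rg minus Il13ra1. For Il4ra minus Il13ra1 they lay between 0.08 and 0.52 (moved by over 1.5 times without A2, A3, D1 or D4) and for Il2rg minus Il4ra between 0.0045 and 0.42 (without A1, A3, A4, A5, D1, D2 or D4). A difference in change between the type I and the type II partner chain was thus not detectable with these libraries.

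**Figure D1:**
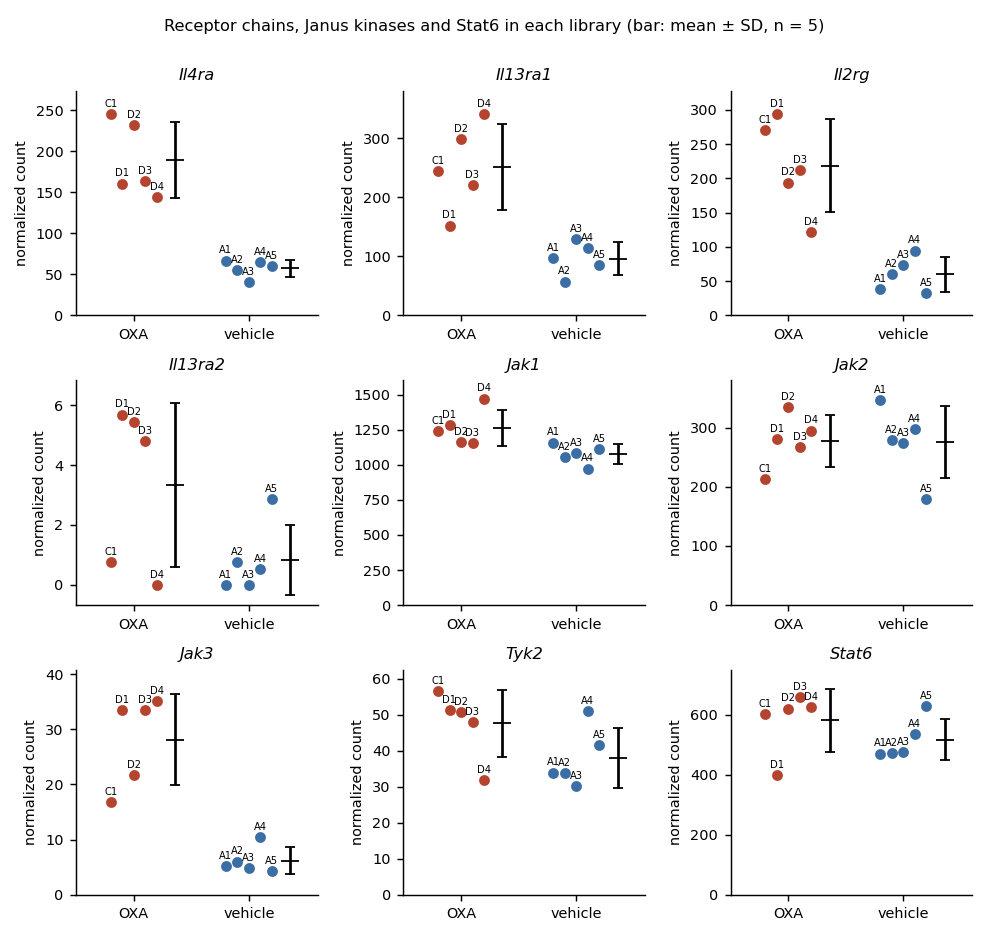
Normalized counts of the 9 genes in each library, OXA on the left and vehicle on the right of each panel; each point is 1 library and the bar gives the mean ± SD (n = 5). Il4ra, Il13ra1, Il2rg and Jak3 show no overlap between the groups, and the points of Jak1, Jak2, Tyk2, Stat6 and Il13ra2 overlap.

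Il13ra2, the decoy chain (ENSMUSG00000031289.10, chromosome X, 147383176 to 147429192), was close to undetected. It had 0.76, 5.69, 5.43, 4.79 and 0 normalized counts in C1 and D1 to D4, against 0, 0.75, 0, 0.52 and 2.86 in A1 to A5. These values stand for 17 reads in all OXA libraries together and 4 in all vehicle libraries together. D1, D2 and D3 were above every vehicle library, but C1 and D4 were within the vehicle range. The means were 3.33 ± 2.73 in OXA and 0.826 ± 1.2 in vehicle esophagus (SD, n = 5 each), and the difference did not pass an exact permutation test (two-sided p = 0.135). Without D4 that p was 0.0397, and without the 3 shallowest libraries (D2, D4 and A5) it was 0.0286, so the side of the threshold rested on D4. With no filter on low values its limma adjusted p was 0.285. No fold change is given, because several libraries lie at or under the level that 3 reads would give.

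Among the kinases, Jak3, which docks on the common gamma chain (ENSMUSG00000031805.17, chromosome 8, 71676296 to 71690875), was the member with the largest ratio of means. It had 16.8, 33.4, 21.7, 33.5 and 35.1 normalized counts in C1 and D1 to D4, against 5.14, 6.00, 4.87, 10.4 and 4.29 in A1 to A5. The groups did not overlap, with C1 the lowest OXA library and A4 the highest vehicle library. The means were 28.1 ± 8.30 in OXA and 6.14 ± 2.46 in vehicle esophagus (SD, n = 5 each), a ratio of 4.58. The log2 change was 2.03 ± 0.35, with a 95% interval of 1.28 to 2.78 and an adjusted p of 6.57e-04 in limma. It was also a low gene, resting on 138 reads in the OXA libraries and 41 in the vehicle libraries, with 3 to 47 in a single library.

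The window in which Jak3 reads could be counted also needs a remark. The table's 3′ ends lie 300 bases beyond those of GENCODE M21 for 19418 protein-coding genes whose identifier and version match, and for all 9 members. With that extension the Jak3 window overlaps 420 bases of B3gnt3, which encodes a glycosyltransferase on the opposite strand, where the GENCODE genes share 0 bases. B3gnt3 had 30.6 ± 12.0 normalized counts in OXA and 10.3 ± 5.66 in vehicle esophagus (SD, n = 5 each). It also overlaps 1662 bases of Insl3 on the same strand, which was listed at 0. The strand setting of the authors' counting is unstated in the sources, and the part of B3gnt3 reads in the Jak3 values was not tested. The windows of Stat6 and Nab2 share 640 bases and those of Jak1 and Raver2 share 604 bases, each on opposite strands. Nab2 had 107 ± 43.0 in OXA and 109 ± 8.14 in vehicle esophagus, and Raver2 5.47 ± 4.76 in OXA and 8.65 ± 3.86 in vehicle esophagus (SD, n = 5 each).

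Jak1, the kinase of the alpha chain and of many other receptors (ENSMUSG00000028530.14, chromosome 4, 101152067 to 101265282), had 1243, 1284, 1162, 1158 and 1473 normalized counts in C1 and D1 to D4, against 1160, 1055, 1086, 974 and 1110 in A1 to A5. C1, D1, D2 and D4 were above every vehicle library, and D3 lay just under A1. The means were 1264 ± 129 in OXA and 1077 ± 69.2 in vehicle esophagus (SD, n = 5 each). The log2 change of 0.23 ± 0.12 had a 95% interval of -0.03 to 0.48 and an adjusted p of 0.164 in limma, and the exact permutation test of this gene alone gave p = 0.0159. Scaled to library totals, which puts the median change of all genes at 0.115 in place of -0.01 on the log2 scale, Jak1 was called at 0.36 (adjusted p = 0.0346 in limma), or 0.24 relative to that median. Jak1 varied least of the members, with a coefficient of variation of 10.2% in OXA and 6.43% in vehicle libraries.

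Jak2, which can serve the IL-13 receptor chain (ENSMUSG00000024789.12, chromosome 19, 29251828 to 29313380), had 214, 281, 335, 267 and 295 normalized counts in C1 and D1 to D4, against 347, 279.7, 274, 299 and 179 in A1 to A5. The groups overlapped over nearly their whole range. The means were 278 ± 44.2 in OXA and 276 ± 61.3 in vehicle esophagus (SD, n = 5 each), with a log2 change of 0.03 ± 0.18, a 95% interval of -0.36 to 0.42 and an adjusted p of 0.914 in limma, and with -0.12 without A5 and -0.04 without D2. Tyk2, the other kinase of that chain (ENSMUSG00000032175.11, chromosome 9, 21103768 to 21131243), had 56.5, 51.2, 50.7, 47.9 and 31.9 in C1 and D1 to D4, against 33.9, 33.8, 30.2, 50.9 and 41.5 in A1 to A5. C1, D1, D2 and D3 were above every vehicle library except A4, which lay between D1 and D2, and D4 was lower than all but A3. The means were 47.6 ± 9.31 in OXA and 38.1 ± 8.28 in vehicle esophagus (SD, n = 5 each), with a log2 change of 0.32 ± 0.23, a 95% interval of -0.17 to 0.81 and an adjusted p of 0.319 in limma. The upper ends of these intervals correspond to ratios of 1.34 for Jak2 and 1.75 for Tyk2.

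Within libraries, Jak3 rose relative to the other kinases tested with it. Jak3 minus Tyk2, the kinase of the type I partner chain against that of the type II partner chain, averaged -0.77 ± 0.70 in OXA and -2.48 ± 0.31 in vehicle libraries (SD), a shift of 1.72 with no overlap (exact permutation p = 0.00794, adjusted 0.0238). Jak3 minus Jak1 averaged -5.49 ± 0.42 in OXA and -7.29 ± 0.52 in vehicle libraries (SD), a shift of 1.80 with no overlap (exact permutation p = 0.00794, adjusted 0.0238). Jak2 minus Jak1 shifted by -0.20, with overlapping groups (exact permutation p = 0.373, adjusted 0.429), and by -0.35 to -0.11 with 1 library left out, where A4, A5, C1 or D2 moved it by over 1.5 times. A p of 0.00794 is the smallest that 5 against 5 libraries allow. Without the 3 shallowest libraries the shifts were 1.42 for Jak3 minus Tyk2 and 1.71 for Jak3 minus Jak1 (adjusted exact permutation p = 0.0857 and 0.129), in a design whose smallest unadjusted p is 0.0286.

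Stat6, the transcription factor on which both receptors converge (ENSMUSG00000002147.18, chromosome 10, 127642986 to 127661257), had 602, 399, 621, 660 and 626 normalized counts in C1 and D1 to D4, against 470, 472, 476, 535 and 629.6 in A1 to A5. Library D1 was the lowest of all 10 libraries and the other OXA libraries lay above A1 to A4. The means were 582 ± 104 in OXA and 517 ± 68.6 in vehicle esophagus (SD, n = 5 each), with a log2 change of 0.16 ± 0.16, a 95% interval of -0.18 to 0.49 and an adjusted p of 0.478 in limma. Without D1 the change was 0.29 (adjusted p = 0.114). Relative to Il4ra in the same library, Stat6 was lower after OXA. This restates the rise of Il4ra (log2 change 1.69), because the OXA mean of Stat6 itself was not lower. Stat6 minus Il4ra averaged 1.63 ± 0.40 in OXA and 3.16 ± 0.28 in vehicle libraries (SD), a shift of -1.53 with no overlap (exact permutation p = 0.00794, adjusted 0.0238), and of -1.57 without the 3 shallowest libraries (adjusted 0.0857). RNA levels say nothing of the phosphorylation by which STAT6 is switched on, which was not measured.

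**Figure D2:**
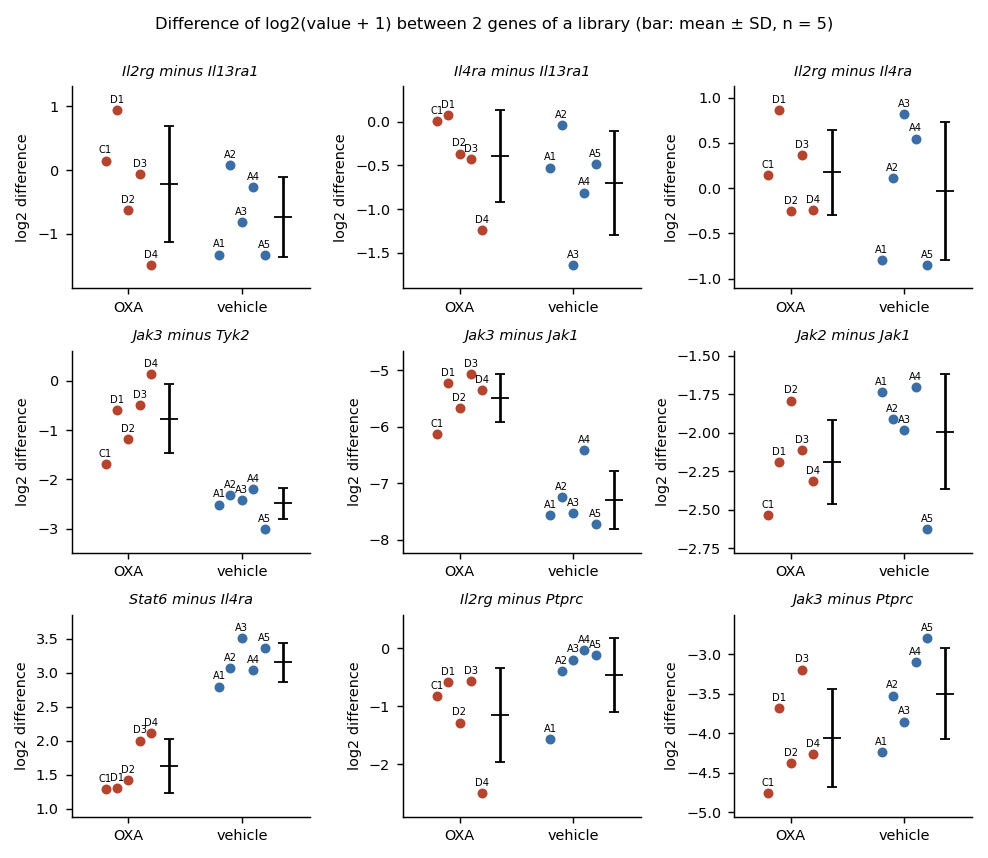
Difference of log2(value + 1) between 2 genes of the same library for the 9 pairs, OXA on the left and vehicle on the right of each panel, with 1 point per library and a bar for the mean ± SD (n = 5). Jak3 minus Tyk2, Jak3 minus Jak1 and Stat6 minus Il4ra show separate groups, and the other 6 pairs overlap.

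**Figure D3:**
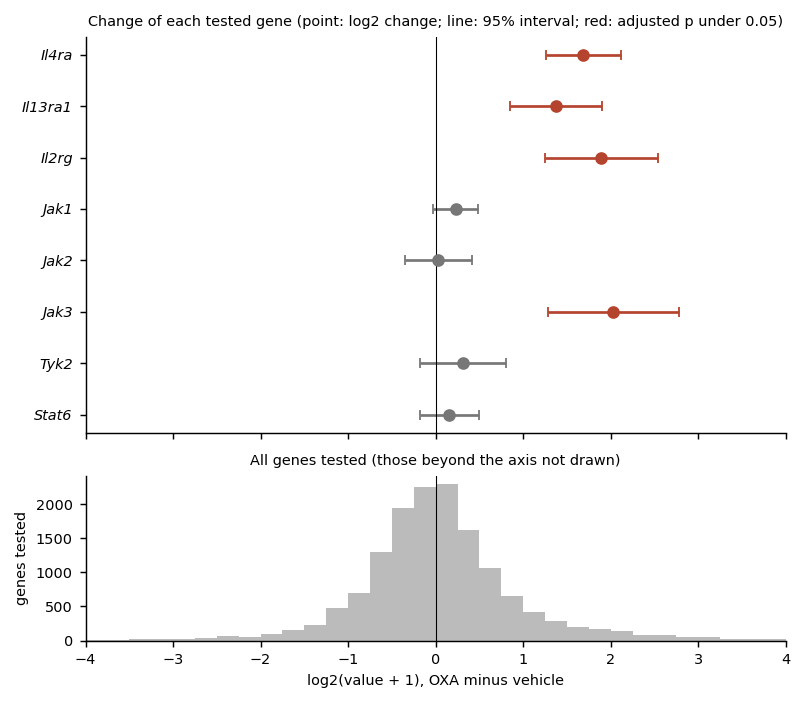
The upper panel gives the log2 change (OXA minus vehicle) of the 8 tested genes with its 95% interval, in red where the adjusted p was under 0.05. The lower panel gives the changes of all 14712 genes tested as counts of genes per bin of log2 change, those beyond the axis not drawn; their median was -0.01.

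Leukocyte RNA stood higher in the same libraries, and these values belong beside those of Il2rg, Jak3, Il4ra and Il13ra1. All 12 leukocyte markers tested were higher (Ptprc, Coro1a, Laptm5, Cd53 and others), with a median log2 change of 2.23 and a summed level of 3267 to 5638 normalized counts in OXA and 759.7 to 1273 in vehicle libraries. Among them, 1 (Vav1) passed the filter only through the OXA group. Ptprc (CD45), carried by nearly all leukocytes, had 481 ± 136 in OXA and 82.1 ± 29.4 in vehicle esophagus (SD, n = 5 each), a log2 change of 2.59 ± 0.28 (adjusted p = 1.96e-05 in limma). Il2rg minus Ptprc averaged -1.16 ± 0.81 in OXA and -0.46 ± 0.64 in vehicle libraries, a shift of -0.69 (exact permutation p = 0.175, adjusted 0.314). That shift was -0.36 without D4 and -0.97 without A1 (adjusted exact permutation p = 0.459 and 0.0536). Jak3 minus Ptprc averaged -4.06 ± 0.62 in OXA and -3.50 ± 0.58 in vehicle libraries, a shift of -0.56 (exact permutation p = 0.175, adjusted 0.314). The part of leukocyte RNA in the changes of the 4 genes was not tested.

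The counts of each marker list stand beside 15.7% higher among all genes tested. Of the T cell and innate lymphoid markers, 9 of 12 were higher, 1 of which (Cd3g) passed the filter only through the OXA group. Their summed levels were 569 to 760 in OXA and 146 to 211 in vehicle libraries. Of the macrophage and dendritic cell markers, 9 of 10 were higher, 1 of which (Flt3) passed the filter only through the OXA group. This list summed to 4538 to 8393 in OXA and 2088 to 3807 in vehicle libraries. The B and plasma cell markers were higher for 5 of 6 tested, 3 of which passed the filter only through the OXA group. They summed to 1250 to 3773 in OXA and 40.5 to 680 in vehicle libraries. Pax5 was under the filter, at 1.91 ± 2.95 in OXA esophagus and 0 in every vehicle library, with overlapping groups. The neutrophil markers were higher for 4 of 5 tested, 1 of which (Retnlg) passed the filter only through the OXA group. Their summed level was 1184 to 4971 in OXA and 332 to 436 in vehicle libraries. That sum was made up mostly of S100a9 and S100a8, which squamous epithelium can also express. Csf3r was higher, with 26.6 ± 11.1 in OXA and 9.71 ± 4.56 in vehicle esophagus (adjusted p = 0.0232 in limma). Retnlg was also higher, with 36.2 ± 22.1 in OXA and 1.55 ± 0.581 in vehicle esophagus (adjusted p = 4.58e-05 in limma). Neither overlapped between the groups. Ly6g, Elane and Mpo averaged 0.284, 0.142 and 0.726 in OXA and 0.104, 0.310 and 0 in vehicle esophagus. Cxcr2 was not called, with 27.6 ± 5.64 in OXA and 31.5 ± 6.80 in vehicle esophagus. Siglecf and Epx, defining genes of eosinophils, were near 0 in both groups. Siglecf averaged 2.36 ± 3.37 in OXA and 0.208 ± 0.465 in vehicle esophagus (SD, n = 5 each), and Epx averaged 0.306 ± 0.684 in OXA and was at 0 in every vehicle library. Ccr3, the eotaxin receptor, lay between 0.96 and 19.9 in OXA libraries and was at 0 in every vehicle library. Of the 8 eosinophil markers 2 passed the filter, and 1 was higher: Ear6, a ribonuclease gene, had 228 ± 178 in OXA and 37.2 ± 7.88 in vehicle esophagus (2.28 ± 0.41, adjusted p = 8.62e-04 in limma). The list had summed levels of 108 to 628 in OXA and 39.0 to 58.5 in vehicle libraries. Of the mast cell and basophil markers 1 of 5 tested was higher, at 96.7 to 324 in OXA and 81.8 to 146 in vehicle libraries. Mcpt8 was under the filter, at 0.32 ± 0.716 in OXA esophagus and 0 in every vehicle library, with overlapping groups. Without A3, D3 or D4 the B and plasma cell count was 3, without D4 the eosinophil count was 2, and without A1, A3, A4, C1, D2 or D4 the mast cell and basophil count was 0. The neutrophil count was 3 without C1 or D1.

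The markers of the resident tissue did not move in 1 direction. Over all genes tested, 15.7% were higher and 14.2% lower. Of the 10 epithelial markers 3 were higher and 2 lower, and their summed level, set mainly by keratins, was 221273 to 540575 normalized counts in OXA and 593625 to 1006270 in vehicle libraries. Krt14, Dsg3 and Cdh1 were higher, with log2 changes of 2.18, 1.91 and 0.98 (adjusted p = 2.64e-05, 3.14e-05 and 0.00234 in limma). Krt15 and Krt4 were lower, with log2 changes of -2.03 and -1.53 (adjusted p = 1.23e-04 and 0.0344 in limma). The other 5 were not called. Among these, Epcam, an epithelial surface protein, had 174 ± 44.8 in OXA and 177 ± 22.2 in vehicle esophagus (SD, n = 5 each; adjusted p = 0.84 in limma). Of the fibroblast markers 2 of 8 were higher (27309 to 48559 in OXA and 23610 to 34809 in vehicle libraries), of the endothelial markers 1 of 8 (391 to 984 in OXA and 325 to 620 in vehicle libraries), and of the muscle markers 2 of 8 were lower (41615 to 156965 in OXA and 95753 to 124802 in vehicle libraries). Leaving out 1 library moved these small counts. Only 1 epithelial marker was lower without A1, A3, A4, A5, C1, D1 or D3, only 1 fibroblast marker was higher without A2, A4 or C1, and 0 endothelial markers were higher without A3, A4, A5, C1, D1 or D2. The lower muscle markers numbered 5 without D1, 4 without A3 and 1 without A2, C1, D2 or D4. Epithelial and muscle markers, which define the esophagus, were thus present at high levels in all 10 libraries. Their sums differed among the OXA libraries. The muscle sum was highest in D1 (156965) and lowest in D4 (41615), and the epithelial sum was lowest in D1 (221273). D1 and D4 are also the OXA extremes of Il2rg and Il13ra1, and D1 had the lowest Stat6. Whether tissue make-up bears on those values was not tested.

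**Figure D4:**
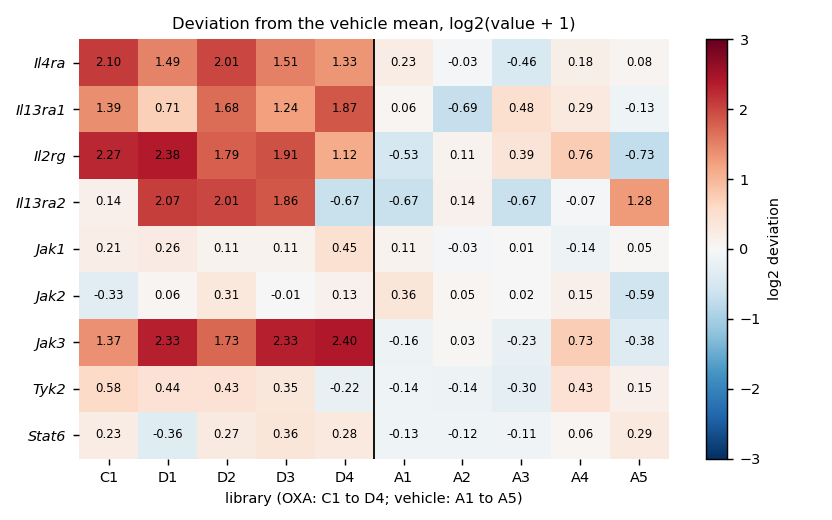
Deviation of log2(value + 1) from the vehicle mean for each of the 9 genes (rows) in each library (columns), with OXA libraries C1 to D4 left of the line and vehicle libraries A1 to A5 right of it. Il4ra, Il13ra1, Il2rg and Jak3 are raised in all 5 OXA libraries, while D1 stands out for a low Stat6 and D4 for a comparatively low Il2rg.

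Genes whose profile over the 10 libraries was most like that of a member were looked up among 11369 genes with a mean of at least 20, by the root mean square difference of log2(value + 1) after centring each gene. For Il4ra they were Itgax, Nfam1 and Neurl3 at 0.261, 0.264 and 0.276, where the median candidate was at 0.967. For Il13ra1 they were Serpinb9, Psme1 and Rcn1 at 0.232, 0.233 and 0.240 (median candidate 0.877). Itgax encodes the integrin CD11c of myeloid cells, Nfam1 an immune receptor of leukocytes, Serpinb9 an inhibitor of granzyme B and Psme1 a proteasome activator subunit. For Il2rg they were Sp110, Irf1 and Ciita at 0.329, 0.363 and 0.374 (median candidate 1.14), of which Irf1 and Ciita encode interferon-induced regulators, and Ciita the master regulator of MHC class II genes. For Jak3 they were Itga4, Apobec3 and H2-Q4 at 0.309, 0.336 and 0.359 (median candidate 1.16), encoding a leukocyte integrin, an antiviral deaminase and an MHC class I heavy chain.

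The members that did not pass the test had closer neighbours, and their median candidates were closer too. This distance grows with a gene's own variation, so its size is not compared between members. For Jak1 the nearest genes were Cbx3, Spin1 and Ccdc12 at 0.0814 to 0.0939 (median candidate 0.414), for Jak2 Fcho2, Dek and Tgfbrap1 at 0.115 to 0.140 (0.482), for Tyk2 Ccdc25, Rhot1 and Vrk3 at 0.151 to 0.165 (0.509), and for Stat6 Sumo3, Sppl3 and Tceanc2 at 0.116 to 0.118 (0.444). These distances describe likeness over 10 libraries that share their normalization, the difference between the groups included.

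The cytokines upstream were mostly under the filter. Il13 averaged 1.65 ± 1.70 normalized counts in OXA and Il4 1.01 ± 0.934 (SD, n = 5 each), and both were at 0 in every vehicle library. A count of 0 there allows up to 3 reads, which would be 1.56 to 4.29 normalized counts depending on the vehicle library. Both genes were under the filter, and a difference between the groups was not tested. Il5 averaged 0.858 ± 1.28 in OXA and 2.84 ± 1.27 in vehicle esophagus (SD, n = 5 each), above 0 in every vehicle library and with overlapping groups. Il9 and Il25 were at 0 in all 10 libraries. Of the 2 cytokine genes tested among 7, Il33, an alarmin that elicits type 2 cytokines, was higher, with 818 ± 208 in OXA and 556 ± 95.5 in vehicle esophagus (log2 change 0.53 ± 0.18, adjusted p = 0.042 in limma). That call was lost when any library other than A3, D1 or D3 was left out (adjusted p = 0.0518 to 0.0979). Tslp had 14.8 ± 10.7 in OXA and 7.27 ± 5.76 in vehicle esophagus (adjusted p = 0.278).

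Among the other receptors that use the common gamma chain and therefore JAK3, 3 of 5 tested were higher and 0 were lower, with a median log2 change of 2.05. Beside this and the list counts below stand 15.7% higher and 14.2% lower among all genes tested. Il21r, the IL-21 receptor, had 31.9 ± 3.67 normalized counts in OXA and 2.26 ± 2.68 in vehicle esophagus (adjusted p = 2.23e-04 in limma). It passed the filter only through the OXA group, and its log2 change ran between 2.42 and 4.30 with pseudocounts of 5 and 0.5, so no fold change is given. Il2rb, the beta chain for IL-2 and IL-15, had 56.3 ± 5.55 in OXA and 5.79 ± 4.55 in vehicle esophagus (3.48 ± 0.54, adjusted p = 3.38e-04 in limma). Its lowest vehicle value was 0, and the size of its log2 change depended on the pseudocount, at 2.61 with 5 and 3.75 with 0.5. Il7r, the IL-7 receptor alpha chain, had 27.2 ± 14.8 in OXA and 5.37 ± 1.99 in vehicle esophagus (2.05 ± 0.42, adjusted p = 0.00212). None of these 3 genes overlapped between the groups, where OXA stood apart above vehicle for 12% of all genes tested. They were named for a small p in their list, so their separation is no further result. All 3 are known from lymphocytes, whose markers are given above. Il15ra had 109 ± 24.3 in OXA and 81.2 ± 14.5 in vehicle esophagus (0.41 ± 0.21, adjusted p = 0.15), and it was called without D4 (0.57, adjusted p = 0.0274).

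Of the receptors that use JAK1 or TYK2 in the interferon, IL-10 and IL-20 families, 4 of 9 tested were higher and 2 lower, with a median log2 change of 0.65. Il10ra, the ligand-binding chain for IL-10, rose by 2.76 ± 0.38 (adjusted p = 1.33e-04 in limma) and Ifngr2, the second chain of the interferon gamma receptor, by 0.65 ± 0.13 (adjusted p = 0.0016). Il20rb, a chain for IL-19, IL-20 and IL-24, was lower, with 118 ± 45.5 in OXA and 377 ± 49.5 in vehicle esophagus (-1.73 ± 0.22, adjusted p = 6.18e-05). Ifnlr1, the interferon lambda receptor chain of epithelia, was also lower, with 18.9 ± 7.21 in OXA and 51.4 ± 17.6 in vehicle esophagus (-1.43 ± 0.34, adjusted p = 0.0058). Not every receptor chain that signals through these kinases moved as Il4ra did.

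The gp130 and IL-12 family chains were listed together with Crlf2, which belongs to neither family. Of this list, 5 of 10 tested were higher, Crlf2 among them, and 1 lower, with a median log2 change of 0.61. Crlf2, the TSLP receptor chain, rose by 1.1 ± 0.25 (adjusted p = 0.00487 in limma), Il11ra1, the IL-11 receptor, by 0.62 ± 0.15 (adjusted p = 0.00824) and Il6st (gp130) by 0.60 ± 0.18 (adjusted p = 0.0211). Il6st lost its call without A3 (adjusted p = 0.0566), and without A3 or C1 only 3 of the 10 genes were higher. Of the 5 higher genes, 1 passed the filter only through the OXA group. Il6ra, the IL-6 receptor, had 357 ± 59.8 in OXA and 588 ± 124 in vehicle esophagus (-0.71 ± 0.17, adjusted p = 0.0055).

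Of the beta common chain and single-chain receptors that use JAK2, 4 of 6 tested were higher and 0 lower, with a median log2 change of 1.32. Csf2rb, the beta chain shared by IL-3, IL-5 and GM-CSF, had 84.6 ± 17.1 in OXA and 20.6 ± 4.61 in vehicle esophagus (1.99 ± 0.23, adjusted p = 3.69e-05 in limma), and Il3ra 40.7 ± 7.79 in OXA and 10.7 ± 4.00 in vehicle esophagus (1.88 ± 0.30, adjusted p = 3.61e-04). Csf2rb2, a close copy of Csf2rb whose reads may be shared with it, rose by 1.20 ± 0.40 (adjusted p = 0.0369) and Prlr, the prolactin receptor, by 1.44 ± 0.49 (adjusted p = 0.0396). The Csf2rb2 call was lost without A1, A3, A5, C1, D3 or D4 (adjusted p = 0.0557 to 0.0778) and the Prlr call without A2, A3, A5, D3 or D4 (adjusted p = 0.0688 to 0.0922). Without A3, A5 or D3 only 2 of the 6 genes were higher, and without A3, A5 or D2 1 gene was lower.

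Of 5 other STAT factors examined, 3 were higher and 1 lower, with a median log2 change of 0.93. Stat3 had 1492 ± 302 normalized counts in OXA and 775 ± 46.8 in vehicle esophagus (0.93 ± 0.14, adjusted p = 2.84e-04 in limma), and Stat2 rose by 1.25 ± 0.33 (adjusted p = 0.011). Stat4 had 10.8 ± 3.82 in OXA and 1.08 ± 1.19 in vehicle esophagus (adjusted p = 0.00283 in limma). It passed the filter only through the OXA group and not without C1, and its log2 change ran between 1.37 and 3.17 with pseudocounts of 5 and 0.5, so no fold change is given. The gene that was lower, Stat5b, had 80.1 ± 15.6 in OXA and 124 ± 14.0 in vehicle esophagus (-0.64 ± 0.17, adjusted p = 0.0123). Without the 3 shallowest libraries Stat2 and Stat5b were not called (adjusted p = 0.105 and 0.0511), nor was Stat5b with library totals (adjusted p = 0.0523). Stat6 and Stat5a were the STAT genes examined whose RNA did not pass the test.

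Of the 18 negative regulators, 6 were higher, 1 lower and 11 not called, with a median log2 change of 0.30. Socs1, which blocks JAK activity and is induced by cytokines, had 324 ± 48.0 in OXA and 53.8 ± 14.9 in vehicle esophagus (2.59 ± 0.18, adjusted p = 5.18e-07 in limma). Ptpn6, the phosphatase SHP-1 of blood-derived cells, rose by 2.03 ± 0.22, Socs5 by 1.17 ± 0.16 and Socs3 by 0.80 ± 0.18 (adjusted p = 2.03e-05, 1.1e-04 and 0.00498). The lower gene, Sh2b3, is an adaptor that restrains cytokine receptor signalling and was chosen after its values were seen, with 67.0 ± 6.5 in OXA and 98.7 ± 9.77 in vehicle esophagus (adjusted p = 0.0164 in limma). Over all genes tested, 15.7% were higher, 14.2% lower and 29.9% called in either direction. Of the 14 adaptors and partners that act downstream of the IL-4 receptor, 4 were higher, 0 lower and 10 not called. Their median log2 change was 0.21. The higher ones were Pik3cd, a phosphoinositide 3-kinase catalytic subunit (1.99 ± 0.27), Inpp5d, the phosphatase SHIP1 (1.95 ± 0.25), Dok2, an adaptor (1.58 ± 0.26), and Fes, a tyrosine kinase (1.39 ± 0.31), at adjusted p = 9.93e-05, 7.62e-05, 4.88e-04 and 0.00366 in limma. All 4 are known mainly from blood-derived cells. Without A3 or D2 1 adaptor was lower, and without D2 2 negative regulators were lower. The part of leukocyte RNA in these pathway lists was not tested.

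**Figure D5:**
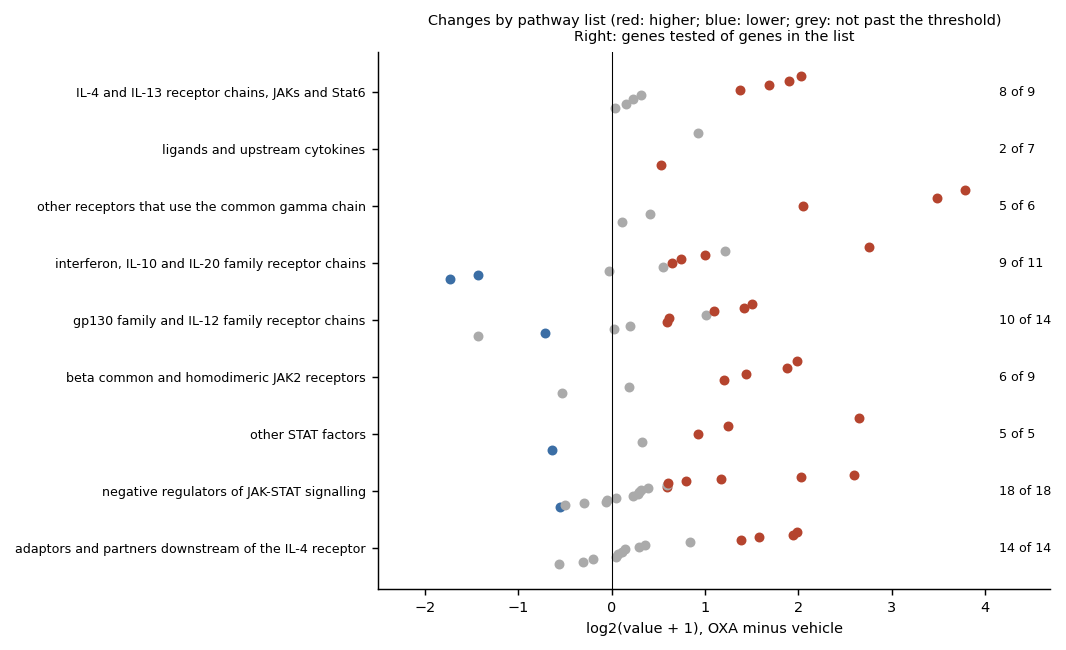
Log2 change (OXA minus vehicle) of each tested gene of the members and of the 8 pathway lists, 1 row per list, in red where higher, in blue where lower and in grey where not past the threshold; the numbers at the right give genes tested of genes in the list. The median of all genes tested was -0.01, and the 4 red points of the top row are Il13ra1, Il4ra, Il2rg and Jak3.

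The depth behind these values was 3675479 (D2) to 8364227 (D1) reads in OXA libraries and 5094159 (A5) to 12108822 (A4) in vehicle libraries. A single read was worth 0.519 (A4) to 1.81 (D2) normalized counts. Over the tested genes, the rank correlation was 0.928 to 0.968 between OXA libraries, 0.961 to 0.982 between vehicle libraries and 0.860 to 0.923 between groups, across genes that are not independent replicates. Of all calls, 52.5% were higher, or 65.4% when libraries were scaled to their totals. Il4ra, Il13ra1, Il2rg and Jak3 were higher with no loss of the call in any leave-one-out fit and under each scaling tried.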

How the data were processed

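The deposited table gives 1 signal per gene and library, which the authors made by dividing gene counts by a size factor per library; this was worked out from the values, all of which came out as whole reads within 0.006. Per the submitters' processing notes the tools included HTSeq 0.11.2, Bowtie2 2.2.6, TopHat2 2.1.0, DESeq2, cutadapt, Trim Galore and FastQC 0.11.5, with the genome build GRCm38. Neither a strand setting nor molecular identifiers are stated, so limits from reads cover counting error only. TRIZOL extraction and CEL-Seq on an Illumina sequencer are per the labels' protocols.

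The 14712 genes that averaged 5 or more were tested on log2(value + 1) with limma 3.58.1 (R 4.3.3, mean-variance trend, Benjamini-Hochberg adjusted p under 0.05), OXA minus vehicle. Log2 changes are on this scale, which understates changes of low genes, while ratios of means were taken from the normalized counts themselves. Members and pairs were also given exact two-sided permutation tests over all regroupings of the libraries. Read counts recovered from the table were tested with edgeR 4.0.16 and DESeq2 1.42.0 as alternatives. Scripts were tested on simulated data. Gene ends were compared with GENCODE M21 and promoters read from RefSeq (GRCm38.p6); all 9 members matched.

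The members and all lists (8 pathway lists, 11 marker lists) were chosen with earlier results of these data known. A gene of 1 pathway list is not reported here and was left out of that list's counts. Besides the members, the text names up to 4 tested genes per pathway list with the smallest p and the 3 most similar profiles per member, leaving out predicted genes; marker genes are named to describe their lists, and other genes named to complete a count or describe an overlap were chosen after their values were seen.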

Additional observations from a re-analysis of the deposited data

Results flagged for a closer look

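Values were checked for a library far from the other 4 of its group in 36 groups of 5, by Dixon's criterion at the 95% level, which chance meets in about 1 of 20 groups. These 4 values met it. Stat6 had 399 normalized counts in OXA library D1, where the other OXA libraries had 602 to 660. Jak3 had 10.4 normalized counts in vehicle library A4, where the other vehicle libraries had 4.29 to 6.00. Il13ra2 had 2.86 normalized counts in vehicle library A5, where the others had 0 to 0.75. Il2rg minus Ptprc was -1.57 on the log2 scale in vehicle library A1, where the others lay between -0.40 and -0.03.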

How the results depend on the processing

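Of 24 alternatives (pseudocount, filter, scaling, test, 10 fits with 1 library left out, 7 libraries without the shallowest, and 8 libraries with and without a replicate block), Il4ra, Il13ra1 and Il2rg kept their direction and call in all and Jak3 in the 23 that tested it, at log2 changes of 1.57 to 1.81, 1.08 to 1.54, 1.62 to 2.09 and 1.56 to 2.21 and adjusted p of at most 0.00276, 0.0145, 0.0152 and 0.00878. Jak3 falls under a filter of 20. Jak1 was called with library totals only, at 0.36. Jak2 changed sign without A5 (-0.12), without D2 (-0.04), without the 3 shallowest libraries (-0.24) and on 8 libraries (-0.024, with and without the block); the cause was not tested. Without the 3 shallowest libraries, where 4 against 3 libraries allow an exact permutation p of 0.0286 at the least, the shifts of Jak3 minus Tyk2, Jak3 minus Jak1 and Stat6 minus Il4ra were 1.42, 1.71 and -1.57 (adjusted p = 0.0857, 0.129 and 0.0857). The recovered reads gave 2411 higher and 1972 lower genes with edgeR and 2627 and 2249 with DESeq2, with the same 4 members called. Leaving out 1 library gave 1896 to 2361 higher and 1686 to 2201 lower genes. Equal digits in the titles of D and A libraries were not treated as pairs: correlations of their deviations were 0.12, -0.19, -0.15 and 0.03, and no library was most like its own digit. With that replicate block, 8 libraries gave 1427 higher and 1084 lower genes, against 1707 and 1417 without it, and the 4 members remained called. Il13ra2, Il4, Il5, Il9, Il13 and Il25 were under the filter at this depth.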
